A study of Homo sapiens with 12 samples.

Results

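The genes described here were 54 interferon-stimulated antiviral genes, measured in the normal human lung fibroblast line WI-38, out of the 25702 genes counted in the series. They were taken by gene symbol as a textbook set, from the receptor of type I interferon to the antiviral effectors, by a rule that uses no measured value, although the set was proposed with earlier results of these data known. The cells were grown in low-glucose medium with serum, and the 4 conditions were D1 (untreated, 1 day), D1+ TGF-β (2 ng/mL for 1 day), D20 (untreated, 20 days) and D20+ TGF-β (the same dose kept up for 20 days), with 3 flasks sequenced in each. The labels name no interferon or virus in any condition. The cells were at passages 2 to 3 at D1 and 5 to 6 at D20. By the study's methods, the flasks of D20 all came from 1 untreated flask of day 1 and those of D20+ TGF-β from 1 treated flask, so that at D20 the flask of origin and the treatment cannot be told apart. Time likewise cannot be told apart from passage, and p-values measure only the spread between these flasks. The RNA samples sequenced were chosen on their quantity and quality, and all came from 1 cell line.

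In textbook terms, cells hit by a virus secrete type I interferon, which binds a receptor made of IFNAR1 and IFNAR2. The receptor's kinases JAK1 and TYK2 phosphorylate STAT2, which acts with IRF9 in the complex ISGF3, and this complex binds a DNA element called the interferon-stimulated response element (ISRE) at the genes it switches on. Type II interferon acts through another element, the gamma-activated site (GAS). Fibroblasts are a classical source and target of type I interferon, and many of these genes also have a low basal expression that does not need infection.

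Some of the members share short promoter sequences, which the rule for members did not read. The set was named for a response that runs through the ISRE, so an excess of that element is no separate trait of it. RefSeq promoter windows (GRCh38.p14) were at hand for 42 of the 54 members. They were not given for IFNAR2, IRF7, DHX58, USP18, IFIT2, OAS2, OASL, MX2, GBP2, IFITM2, PML and TRIM22. In the 250 bases before the start of transcription, the ISRE core, read here as GAAA, any 2 bases and GAAA, was found on either strand in 21 of the 42 members (50%), against 3.07% of all 27305 promoters and 2.32% of the 7838 promoters of genes that passed the filter on low counts. The GAS letters TTCNNNGAA were found in 9 of the 42 (21.4%), against 6.78% and 5.49%. In 3 of those 9, BST2, EPSTI1 and IFI27, the GAS letters shared bases with an ISRE core. An ISRE core or the GAS letters were found in 25 of the 42, and the rest held neither. The stretches below were picked from members with a match, and of these ISG15 was called in no comparison. PARP9, DTX3L, UBE2L6, SAMD9L and DDX58, whose changes are described below, had a window that held neither the ISRE core nor the GAS letters. Each stretch reads 5′ to 3′ on the gene's own strand and lies before the start of transcription, with a single ISRE core in capitals (for IRF1 the GAS). The stretches of IFIT1, IFITM3 and ISG15 held another core match that is not marked, and in ISG15 it shares bases with the marked core. That of PARP14 also held the GAS letters, not marked. Where the core lies on the opposite strand it reads TTTC, any 2 bases and TTTC.
IFIT1: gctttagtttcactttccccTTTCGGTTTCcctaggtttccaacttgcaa
IFIT3: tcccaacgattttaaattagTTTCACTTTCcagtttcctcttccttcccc
PARP14: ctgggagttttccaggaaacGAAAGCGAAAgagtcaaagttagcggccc
PARP12: tttcgccggcccggggccgcTTTCGGTTTC
GBP1: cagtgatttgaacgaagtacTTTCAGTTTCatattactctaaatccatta
IFITM3: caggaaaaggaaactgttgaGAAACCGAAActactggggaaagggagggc
ISG15: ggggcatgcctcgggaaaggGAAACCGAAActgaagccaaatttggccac
LGALS3BP: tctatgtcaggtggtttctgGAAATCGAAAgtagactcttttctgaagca
IRF1: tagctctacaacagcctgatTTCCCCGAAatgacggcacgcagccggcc
Their places in GRCh38.p14 were chr10:89392500-89392549 for IFIT1, chr10:89327855-89327904 for IFIT3, chr3:122680790-122680838 for PARP14, chr7:140062952-140062981 for PARP12 and chr1:89065306-89065355 for GBP1, and chr11:320866-320915 for IFITM3, chr1:1013370-1013419 for ISG15, chr17:78979952-78980001 for LGALS3BP and chr5:132490869-132490917 for IRF1. The genes IFIT1, IFIT3, PARP14 and ISG15 lie on the plus strand, and the other 5 on the minus strand. A match describes letters and is neither a shown binding site nor a cause. Of the members past the count filter that have a window, 8 of the 16 that fell with TGF-β at D20 held the core, as did 3 of the 9 that were not called, a difference that was not tested.

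The libraries held between 8674488 and 18286197 counts. Values below are cpm, which are counts scaled to a common library size with TMM factors, given per flask in the order of replicates 1, 2 and 3. Called means an adjusted p under 0.01 in edgeR's quasi-likelihood test, and every adjusted p below is from that test. Changes written with ± are log2 fold changes with their standard errors. All 6 fibroblast markers (COL1A1, COL1A2, VIM, PDGFRB, THY1 and DCN) stood at 103.5 cpm or more in every flask, and their sum was 12950 to 15390 cpm in D1, 18490 to 19040 in D1+ TGF-β, 15600 to 16600 in D20 and 19440 to 20940 in D20+ TGF-β. They did not move together. With TGF-β at D20, COL1A1 was higher (0.99 ± 0.12, adjusted p = 2.39e-05), while THY1 (−1.20 ± 0.080, adjusted p = 1.33e-07) and DCN (−0.98 ± 0.15, adjusted p = 0.000193) were lower, and these last 2 were higher at D20 than at D1 in untreated cells (0.43 ± 0.079, adjusted p = 0.000518 and 1.86 ± 0.15, adjusted p = 6.46e-07). The summed markers of epithelium and endothelium reached at most 0.585 and 2.58 cpm in any flask. Of 6 leukocyte markers 5 stayed under 1 cpm in every flask and 3 had no count, and CD14 was at 5.34, 5.82 and 6.19 cpm at D20 and at most 0.522 elsewhere. Of 3 myofibroblast markers, ACTA2, which encodes αSMA, was at 748, 836 and 679.9 cpm in D1+ TGF-β against 225, 123 and 191 in D1, but at 280.5, 297 and 351 in D20+ TGF-β against 272, 283 and 292 in D20. These are RNA levels. For αSMA protein, the paper reports an increase with TGF-β at D20 by western blot. By immunofluorescence it reports staining in most treated cells at D20 and in none at D1. ACTA2, TAGLN and CNN1 were all called higher with TGF-β at D1, and at D20 CNN1 was called lower (−0.44 ± 0.11, adjusted p = 0.00509) and ACTA2 and TAGLN gave 0.13 ± 0.17, adjusted p = 0.554 and 0.06 ± 0.13, adjusted p = 0.757. The summed cpm of 6 proliferation genes, MKI67 among them, was 796 to 1212 at D1, 918 to 966 at D1+ TGF-β, 167 to 204 at D20 and 315 to 492 at D20+ TGF-β. These levels moved with the conditions, and their part in the results was not tested. Replicate 2 of D1 and replicate 3 of D20+ TGF-β differed most from the other flasks of their conditions. In bulk RNA fewer cells of a type and less RNA per cell cannot be told apart.

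Of the 54 members, 30 reached 10 cpm in 6 or more libraries out of 12 and were tested among 9490 genes, 18 passed only a wider filter of 50 counts in all (14689 genes), and OAS1, OAS2, OASL, BST2, RSAD2 and CMPK2 passed neither. Of the 30, 24 had 10 cpm in all libraries, and IFIT1, IFIT3, GBP2, PARP9, PARP12 and IFI6 passed through their higher flasks, so that a difference in them was favoured by the filter. The counts and medians over the 30 below include them. IFIT1, IFIT3, PARP9 and PARP12 were among the members called lower with TGF-β at both days, and GBP2 among those lower at D20. IFIT1, IFIT3, GBP2, PARP9 and IFI6 were among those called higher over time, without and with TGF-β. Most members had their highest mean in untreated cells after 20 days and their lowest after 1 day of TGF-β. The mean was highest at D20 for 27 of the 30, while D20 held the highest mean of 31.6% of all tested genes. The lowest mean was at D1+ TGF-β for 19 of the 30, against 30.1% of all tested genes. The summed level of the 30 was 1533 to 1681 cpm in the D1 flasks, 1382 to 1423 in D1+ TGF-β, 2391 to 2567 in D20 and 1567 to 1740 in D20+ TGF-β.

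**Figure D1:**
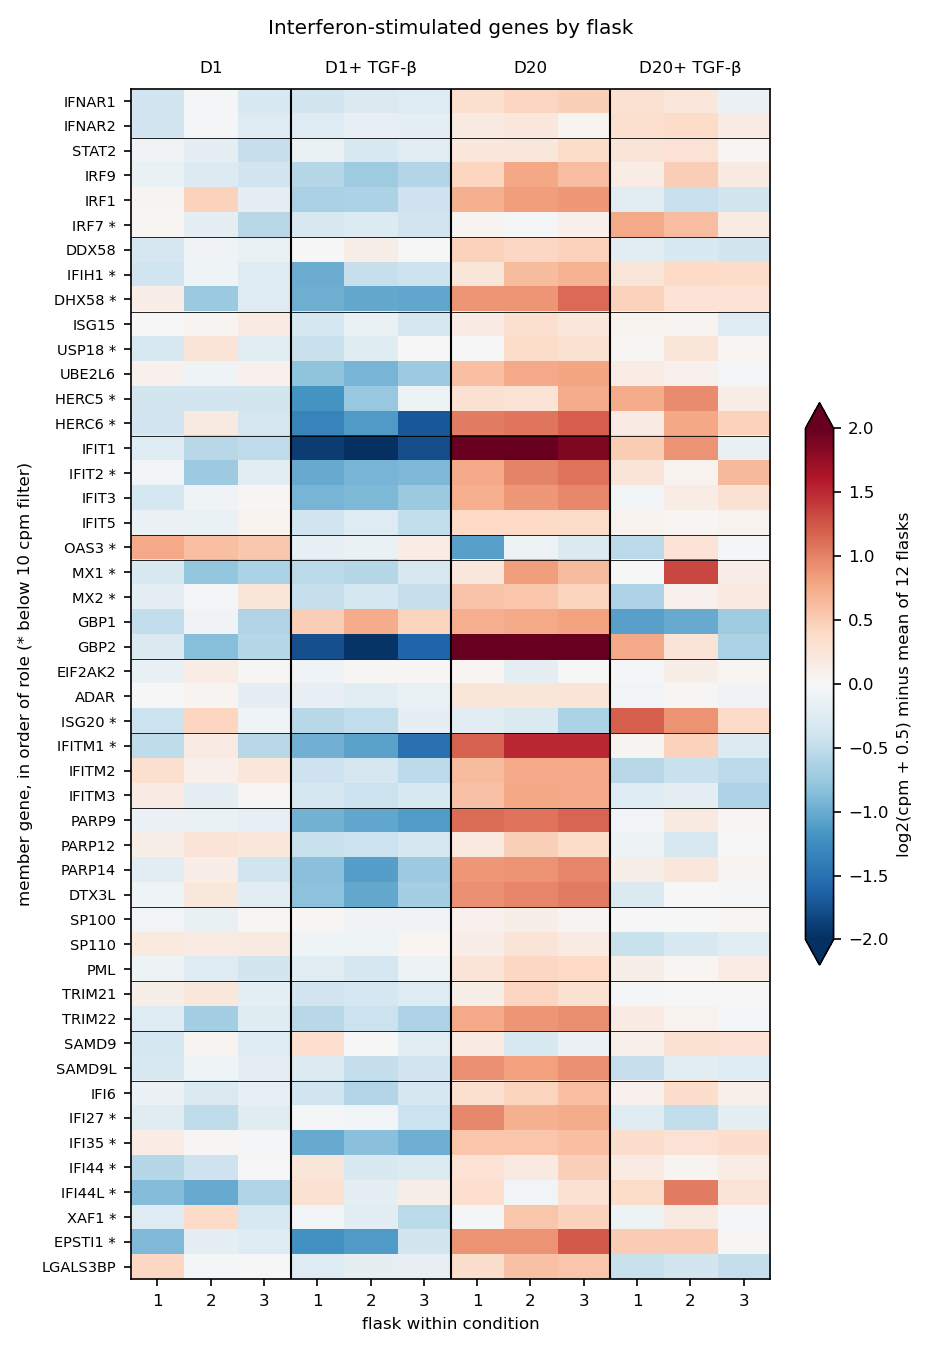
Heat map of 48 members (rows, in order of role, with an asterisk for those under the 10 cpm filter) in 12 flasks (columns, grouped by condition). Colour is log2(cpm + 0.5) minus the gene's mean over the 12 flasks. In 41 of the 48 rows all D20 flasks lie above the gene's mean (red), and in 39 all D1+ TGF-β flasks lie below it (blue). The same was not counted over all tested genes, so no share stands beside these counts.

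At D1, 9 of the 30 members were lower and 1, GBP1, was higher with TGF-β, where 6.5% of all tested genes were called lower, 6.89% higher and 13.4% either way. The median log2 fold change was −0.33 over the 30 and −0.02 over all tested genes. The flasks of treated and untreated cells did not overlap for 2 members that were higher and 18 that were lower, against 17.6% and 18.8% of all tested genes (36.4% either way). At D20, 19 of the 30 were lower with TGF-β and 0 higher, against 14.7% and 12.8% of all tested genes (27.5% either way), with medians of −0.59 and 0.01. Here the flasks did not overlap for 24 members, all lower with TGF-β, against 29.7% of all tested genes lower and 28.7% higher (58.3% either way). At an unadjusted p under 0.05, 0 were higher. DESeq2 called 0 higher, and limma-voom on the sequencing lanes called 1, SAMD9. The D1 and D20 comparisons share no flask. All 9 members lower at D1 were also lower at D20, where they made up 47.4% of the 19. The same overlap was not counted over all tested genes, so it is not known to be particular to the members.

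With days in culture and no TGF-β, 21 of the 30 were higher at D20 than at D1 and 0 lower, against 18.9% and 17.6% of all tested genes (36.4% either way), with a median of 0.63 against 0.01. At an unadjusted p under 0.05, and by DESeq2 and limma-voom, 0 were lower. Flasks did not overlap for 23 members, all higher at D20, against 29.4% of all tested genes higher and 26.2% lower (55.6% either way). Under TGF-β, 15 were higher at D20 and 2, GBP1 and DDX58, were lower, against 17.2% and 17.7% of all tested genes (34.8% either way), with a median of 0.33 against 0.01. Flasks did not overlap for 18 members that were higher and 4 that were lower, against 31.7% and 31.5% of all tested genes (63.2% either way). Of the 21 members higher in untreated cells, 14 were also higher under TGF-β, which is 66.7% of the 21 and 93.3% of the 15. This overlap too was not counted over all tested genes. The comparison of D20 with D1 uses the same D20 flasks as that of D20+ TGF-β with D20, and the same D1 flasks as that of D1+ TGF-β with D1, so that their values are set side by side and are not independent.

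Of the interferons themselves, IFNL1 and IFNG had 0 counts in every library, which allows at most 0.346 cpm in the shallowest, and IFNB1 and IFNA1 stayed at or under 0.334 cpm in each. IFNE, a type I interferon known from epithelia, was at 0.844, 0.653 and 0.753 cpm in D1, 4.18, 3.46 and 5.36 in D1+ TGF-β, 0.0953, 0.373 and 0.301 in D20 and 1.01, 1.31 and 1.597 in D20+ TGF-β. In the fit over the wider filter it was higher with TGF-β at both times (log2 fold change 2.505 ± 0.29, adjusted p = 2.95e-05 at D1 and 2.21 ± 0.41, adjusted p = 0.000679 at D20), in the opposite direction to most members. The D20 levels lie near the 0.175 to 0.284 cpm that 3 counts make in those libraries. Replicate 1 of D20 lies under it, so the size of the change at D20 is uncertain.

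The receptor chain IFNAR1 was higher after 20 days and was not called with TGF-β. Its levels were 84.1, 109 and 88.5 cpm in D1, 85.2, 89.5 and 92.0 in D1+ TGF-β, 137, 148 and 153 in D20 and 135, 129 and 101 in D20+ TGF-β. The untreated flasks of the 2 days did not overlap, and the log2 fold change of D20 over D1 was 0.64 ± 0.11, adjusted p = 0.000364. Under TGF-β it was 0.46 ± 0.11, adjusted p = 0.00457, a call that was lost without any 1 of the D1+ TGF-β flasks or replicate 1 or 2 of D20+ TGF-β (adjusted p = 0.0117 to 0.0281). With TGF-β the log2 fold change was −0.08 ± 0.11, adjusted p = 0.659 at D1 and −0.26 ± 0.11, adjusted p = 0.0762 at D20, with 95% intervals of −0.32 to 0.17 and −0.50 to −0.02. IFNAR2, the other chain, stood at 11.1, 14.3 and 12.1 cpm in D1, 12.2, 13.0 and 12.7 in D1+ TGF-β, 16.6, 17.0 and 15.2 in D20 and 18.6, 19.0 and 16.5 in D20+ TGF-β. It was called in only 1 of the 4 comparisons, D20+ TGF-β over D1+ TGF-β (0.51 ± 0.11, adjusted p = 0.00157), and D20 over D1 gave 0.37 ± 0.11, adjusted p = 0.0111. A readthrough transcript with IL10RB shares exons with IFNAR2 on the same strand, so part of its count is uncertain.

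Of the transcription factors, STAT2 and IRF9, which act in ISGF3, rose with time, while IRF1 fell with TGF-β. STAT2 was at 179, 164 and 136 cpm in D1, 170.3, 151 and 161 in D1+ TGF-β, 218, 219.8 and 242 in D20 and 224, 230.3 and 192 in D20+ TGF-β. Treated and untreated flasks overlapped at each day, and the intervals for TGF-β were −0.21 to 0.23 at D1 and −0.29 to 0.15 at D20. Over time STAT2 gave 0.50 ± 0.10, adjusted p = 0.00110 in untreated cells and 0.42 ± 0.10, adjusted p = 0.00387 under TGF-β, the latter call being lost without replicate 2 or 3 of D1+ TGF-β or replicate 1 or 2 of D20+ TGF-β (adjusted p = 0.0140 to 0.0235). IRF9 was at 21.2, 19.2 and 17.7 cpm in D1, 15.4, 13.9 and 15.4 in D1+ TGF-β, 31.4, 40.1 and 35.8 in D20 and 25.7, 32.8 and 26.4 in D20+ TGF-β. Its log2 fold change over time was 0.89 ± 0.12, adjusted p = 3.16e-05 without and 0.93 ± 0.12, adjusted p = 5.34e-05 with TGF-β, and its values with TGF-β did not pass the test (−0.39 ± 0.13, adjusted p = 0.0388 at D1 and −0.35 ± 0.11, adjusted p = 0.0247 at D20).

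IRF1, which binds ISRE-like elements and is itself a target of type II interferon, was at 30.5, 40.8 and 25.5 cpm in D1 and 18.6, 18.7 and 21.9 in D1+ TGF-β, and at 48.6, 53.0 and 54.1 in D20 and 25.0, 21.4 and 22.6 in D20+ TGF-β. Every treated flask was below every untreated flask of its day. The log2 fold change with TGF-β was −0.72 ± 0.15, adjusted p = 0.00274 at D1 and −1.17 ± 0.14, adjusted p = 2.23e-05 at D20, and the D1 call was lost without replicate 1 or 2 of D1+ TGF-β (adjusted p = 0.0158 to 0.0213). D20 over D1 gave 0.68 ± 0.14, adjusted p = 0.000935 in untreated cells and 0.24 ± 0.15, adjusted p = 0.203 under TGF-β. IRF7, which amplifies interferon transcription, was low, at 2.53, 2.09 and 1.505 cpm in D1, 1.86, 1.95 and 1.75 in D1+ TGF-β, 2.57, 2.39 and 2.65 in D20 and 4.49, 4.04 and 2.82 in D20+ TGF-β. In the wider fit it was higher at D20+ TGF-β than at D1+ TGF-β (1.00 ± 0.23, adjusted p = 0.00255), a call lost without any 1 of the D1+ TGF-β flasks or replicate 1 or 2 of D20+ TGF-β (adjusted p = 0.0101 to 0.0220).

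DDX58 encodes RIG-I, a cytosolic sensor of viral RNA, and is now named RIGI (chr9:32455300-32526206, minus strand, GRCh37). It stood at 25.9, 31.3 and 29.9 cpm in D1, 32.5, 35.6 and 32.8 in D1+ TGF-β, 45.2, 43.7 and 45.1 in D20 and 27.9, 26.6 and 25.2 in D20+ TGF-β. All D20 flasks were above all others, and with TGF-β the gene was lower at D20 (−0.75 ± 0.083, adjusted p = 1.17e-05) and 0.21 ± 0.084, adjusted p = 0.0798 at D1. Time gave 0.62 ± 0.082, adjusted p = 3.57e-05 in untreated cells and −0.34 ± 0.085, adjusted p = 0.00434 under TGF-β, the second call being lost without replicate 2 of D1+ TGF-β or replicate 2 or 3 of D20+ TGF-β (adjusted p = 0.0152 to 0.0290). IFIH1 (MDA5) and DHX58 (LGP2), the related sensors, were read at low counts. DHX58 was at 5.32, 2.68 and 3.93 cpm in D1 and 9.25, 9.25 and 11.1 in D20, and both it and IFIH1 were higher at D20 than at D1 in the wider fit, without TGF-β (1.302 ± 0.19, adjusted p = 7.19e-05 and 0.83 ± 0.18, adjusted p = 0.00204) and with it (1.52 ± 0.22, adjusted p = 9.62e-05 and 1.00 ± 0.20, adjusted p = 0.00112). For IFIH1 the call without TGF-β was lost without replicate 1 of D1 or replicate 2 or 3 of D20 (adjusted p = 0.01003 to 0.0169). With TGF-β, DHX58 gave −0.87 ± 0.24, adjusted p = 0.0186 at D1 and −0.65 ± 0.18, adjusted p = 0.0119 at D20, and IFIH1 −0.39 ± 0.21, adjusted p = 0.221 and −0.22 ± 0.18, adjusted p = 0.349, none of them called.

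In the ISG15 system, a pathway that attaches the ubiquitin-like protein ISG15 to other proteins, the conjugating enzyme UBE2L6 fell with TGF-β and ISG15 itself was not called. ISG15 was at 19.8, 20.3 and 22.1 cpm in D1, 15.2, 17.7 and 15.5 in D1+ TGF-β, 21.9, 24.5 and 23.1 in D20 and 20.6, 20.4 and 16.4 in D20+ TGF-β. The treated flasks lay below the untreated ones at each day by a small margin (−0.35 ± 0.11, adjusted p = 0.0315 at D1 and −0.27 ± 0.10, adjusted p = 0.0491 at D20), and the interval for D20 over D1 in untreated cells was −0.06 to 0.39. UBE2L6 was at 41.4, 36.8 and 41.7 cpm in D1 and 22.2, 20.4 and 23.5 in D1+ TGF-β, and at 59.6, 66.7 and 67.8 in D20 and 43.2, 41.7 and 38.5 in D20+ TGF-β. The flasks of the 2 treatments did not overlap at either day, with −0.87 ± 0.090, adjusted p = 1.66e-05 at D1 and −0.65 ± 0.083, adjusted p = 4.20e-05 at D20, and time gave 0.70 ± 0.083, adjusted p = 1.50e-05 without and 0.91 ± 0.090, adjusted p = 6.52e-06 with TGF-β.

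HERC6, a relative of the ISG15 ligase HERC5, was at 3.63, 5.55 and 3.76 cpm in D1, 1.63, 1.95 and 1.16 in D1+ TGF-β, 10.4, 10.8 and 11.8 in D20 and 5.505, 8.68 and 6.86 in D20+ TGF-β. It fell with TGF-β at D1 (−1.39 ± 0.25, adjusted p = 0.00136, wider fit) and rose over time without (1.299 ± 0.19, adjusted p = 8.60e-05) and with TGF-β (2.03 ± 0.24, adjusted p = 1.78e-05). HERC5 itself stayed at or under 2.22 cpm, and was called higher only over time under TGF-β (2.03 ± 0.45, adjusted p = 0.00207), which was lost without replicate 2 of D1+ TGF-β or replicate 1 of D20+ TGF-β (adjusted p = 0.0105 to 0.0231). USP18, the protease that removes ISG15 and restrains the receptor, was at 3.46, 5.42 and 3.76 cpm in D1, 3.14, 3.68 and 4.42 in D1+ TGF-β, 4.48, 5.89 and 5.65 in D20 and 4.55, 5.35 and 4.60 in D20+ TGF-β. It passed the test in none of the 5 comparisons, with adjusted p between 0.202 and 0.957.

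The IFIT genes encode proteins that bind viral RNA and block its translation, and lie side by side on chromosome 10. IFIT1 (chr10:91152303-91166244, plus strand, GRCh37) had the largest changes of the 6 members called lower with TGF-β at both days and higher over both courses. How many of all tested genes had this pattern of calls was not counted. IFIT1 stood at 11.9, 9.60 and 9.87 cpm in D1, 3.48, 2.67 and 3.84 in D1+ TGF-β, 58.0, 62.0 and 53.2 in D20 and 20.5, 27.2 and 12.8 in D20+ TGF-β. No flask of one condition overlapped those of another, and among the D20+ TGF-β flasks replicate 3 was lowest. With TGF-β the gene was 3.24-fold lower at D1 (log2 fold change −1.70 ± 0.27, adjusted p = 0.000473) and 2.87-fold lower at D20 (−1.52 ± 0.19, adjusted p = 2.83e-05). At D20 it was 5.53-fold higher than at D1 in untreated cells (2.47 ± 0.20, adjusted p = 5.07e-07) and 6.25-fold higher under TGF-β (2.64 ± 0.25, adjusted p = 4.91e-06). The difference of the 2 TGF-β responses was 0.18 ± 0.33 with a 95% interval of −0.53 to 0.88.

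IFIT3 was at 13.2, 16.1 and 17.1 cpm in D1, 8.60, 8.86 and 9.90 in D1+ TGF-β, 28.3, 31.1 and 33.5 in D20 and 16.3, 18.9 and 21.0 in D20+ TGF-β. It fell with TGF-β by similar amounts at the 2 days, −0.77 ± 0.13, adjusted p = 0.00100 at D1 and −0.74 ± 0.12, adjusted p = 0.000241 at D20, with a difference of 0.03 ± 0.18 (95% interval −0.35 to 0.41). Over time it rose by 1.00 ± 0.12, adjusted p = 1.35e-05 without and 1.03 ± 0.13, adjusted p = 3.94e-05 with TGF-β. IFIT5 moved less, from 36.5, 36.2 and 41.8 cpm in D1 and 30.1, 33.1 and 28.1 in D1+ TGF-β to 52.9, 52.8 and 51.2 in D20 and 41.7, 41.0 and 41.9 in D20+ TGF-β, and its fall at D20 (−0.33 ± 0.079, adjusted p = 0.00426) was lost without any 1 of the D20 flasks or replicate 1 or 2 of D20+ TGF-β (adjusted p = 0.0133 to 0.0206). IFIT2 was read at 7.68, 4.63 and 6.86 cpm in D1, 3.72, 3.96 and 4.08 in D1+ TGF-β, 13.9, 16.5 and 17.5 in D20 and 9.66, 8.38 and 12.8 in D20+ TGF-β. In the wider fit it rose over time (1.305 ± 0.18, adjusted p = 4.74e-05 without and 1.36 ± 0.21, adjusted p = 0.000124 with TGF-β), and TGF-β gave −0.68 ± 0.22, adjusted p = 0.0386 at D1 and −0.63 ± 0.18, adjusted p = 0.0112 at D20, not called. Exons of IFIT2 and IFIT3 overlap those of LIPA on the opposite strand.

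PARP9, DTX3L, PARP14 and PARP12 were each called lower with TGF-β at both days. PARP9 and the ubiquitin ligase DTX3L work as a pair, and their genes start 239 bases apart on opposite strands of chromosome 3 with overlapping exons (chr3:122246771-122283424, minus strand, and chr3:122283185-122294050, plus strand, GRCh37), so that their counts may share reads if strand was not used. PARP9 was at 20.0, 19.6 and 19.1 cpm in D1, 11.03, 10.2 and 9.66 in D1+ TGF-β, 47.5, 46.6 and 49.0 in D20 and 20.8, 24.6 and 22.2 in D20+ TGF-β. The spread within a condition was at most 1.95 cpm (SD), less than the gaps between treated and untreated flasks. TGF-β gave −0.92 ± 0.091, adjusted p = 1.15e-05 at D1 and −1.09 ± 0.080, adjusted p = 3.07e-07 at D20, and time 1.28 ± 0.081, adjusted p = 9.91e-08 without and 1.12 ± 0.091, adjusted p = 1.74e-06 with TGF-β. DTX3L was at 47.6, 59.3 and 43.7 cpm in D1, 28.3, 24.6 and 31.3 in D1+ TGF-β, 96.0, 99.9 and 105 in D20 and 41.6, 50.5 and 49.2 in D20+ TGF-β. Its falls were −0.86 ± 0.12, adjusted p = 0.000234 at D1 and −1.10 ± 0.12, adjusted p = 7.94e-06 at D20, and its rises 0.99 ± 0.11, adjusted p = 1.14e-05 and 0.75 ± 0.12, adjusted p = 0.000251 in the same order of treatments.

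PARP14, an enzyme that adds single ADP-ribose units to proteins, was at 53.1, 68.3 and 47.3 cpm in D1, 34.7, 28.7 and 37.6 in D1+ TGF-β, 114, 116 and 123 in D20 and 67.7, 73.0 and 64.8 in D20+ TGF-β. Treated flasks were below untreated ones at each day (−0.76 ± 0.13, adjusted p = 0.000803 at D1 and −0.78 ± 0.12, adjusted p = 0.000180 at D20), and the responses differed by −0.02 ± 0.17 (95% interval −0.401 to 0.35). It rose over time by 1.06 ± 0.12, adjusted p = 9.83e-06 without and 1.04 ± 0.13, adjusted p = 2.94e-05 with TGF-β. PARP12, a zinc finger member of the family, was at 10.1, 11.2 and 10.8 cpm in D1, 6.62, 6.69 and 7.22 in D1+ TGF-β, 10.7, 13.0 and 12.0 in D20 and 8.59, 7.27 and 9.21 in D20+ TGF-β. It fell with TGF-β at D1 (−0.65 ± 0.12, adjusted p = 0.00157), which was lost without replicate 2 of D1+ TGF-β (adjusted p = 0.0147), and at D20 (−0.51 ± 0.11, adjusted p = 0.00290), which was lost without replicate 2 or 3 of D20 or replicate 1 or 2 of D20+ TGF-β (adjusted p = 0.0128 to 0.0179). It was not called over time.

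**Figure D2:**
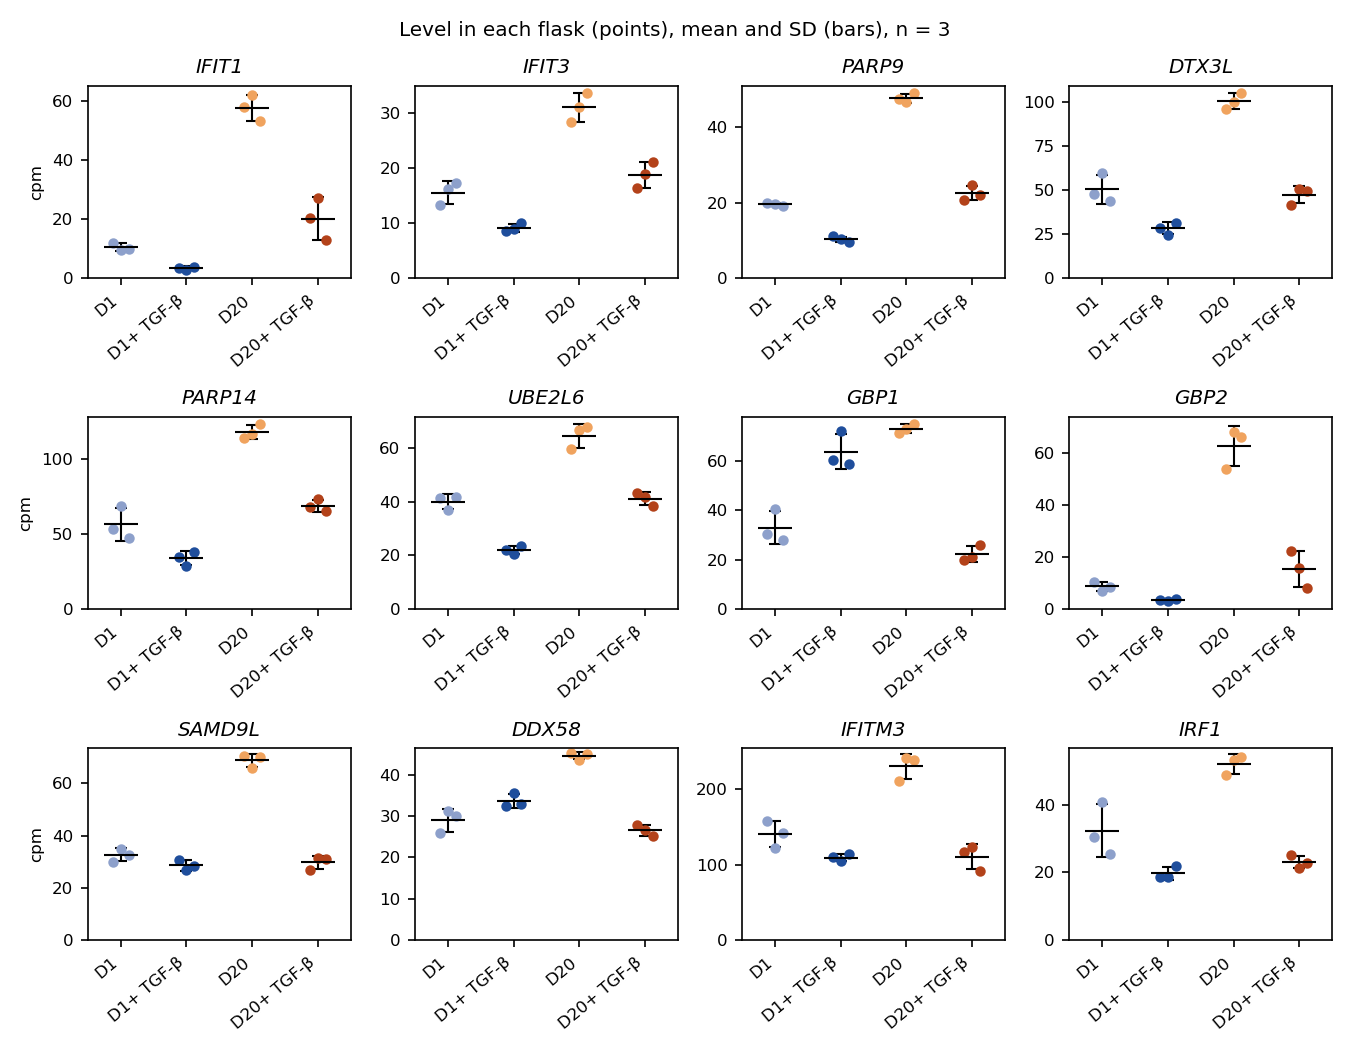
Level of 12 members in each flask (points, cpm on a linear axis from 0), with the mean and SD of the 3 flasks (bars), by condition. The D20 flasks lie above all others in each panel but that of GBP1, and the flasks of GBP1 and DDX58 lie higher in D1+ TGF-β than in D1.

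The guanylate-binding proteins are GTPases that act against intracellular pathogens and respond above all to type II interferon. GBP1 (chr1:89517565-89531043, minus strand, GRCh37) was the 1 member called in opposite directions at the 2 days. It was at 30.2, 40.7 and 28.2 cpm in D1 and 60.6, 72.1 and 58.8 in D1+ TGF-β, but at 71.4, 72.9 and 75.1 in D20 and 19.9, 21.2 and 25.9 in D20+ TGF-β. Every treated flask was above every untreated flask at D1 and below every one at D20. TGF-β gave a 1.93-fold rise at D1 (0.95 ± 0.13, adjusted p = 0.000190) and a 3.29-fold fall at D20 (−1.72 ± 0.14, adjusted p = 6.12e-07). Time gave 1.14 ± 0.13, adjusted p = 1.11e-05 in untreated cells and −1.53 ± 0.14, adjusted p = 3.18e-06 under TGF-β, and each of these calls held in all 23 alternatives.

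GBP2, its neighbour on chromosome 1, was at 10.5, 6.92 and 8.53 cpm in D1, 3.48, 2.95 and 3.96 in D1+ TGF-β, 53.7, 68.0 and 66.0 in D20 and 22.3, 15.6 and 8.17 in D20+ TGF-β. It had the largest fitted rise over time among the 48 members past a filter, 7.31-fold in untreated cells (2.87 ± 0.26, adjusted p = 1.17e-06), and 2.22 ± 0.32, adjusted p = 9.72e-05 under TGF-β. With TGF-β it was lower at D20 (−1.99 ± 0.24, adjusted p = 2.45e-05), and at D1 the flasks did not overlap but the value was not called (−1.34 ± 0.34, adjusted p = 0.0115). The D20+ TGF-β flasks spread almost 3 times, with replicate 3 lowest. Its exons overlap those of GBP7 on the same strand. The dynamin-like GTPases MX1 and MX2, which trap viral nucleocapsids, were low. MX1 was at 1.18, 0.718 and 0.836 cpm in D1, 0.929, 0.892 and 1.16 in D1+ TGF-β, 1.91, 3.21 and 2.71 in D20 and 1.57, 4.75 and 1.78 in D20+ TGF-β, and its rise over time (1.51 ± 0.41, adjusted p = 0.00786) was lost without any 1 of the D1 flasks, any 1 of the D1+ TGF-β flasks or replicate 2 or 3 of D20 (adjusted p = 0.0113 to 0.0361). MX2 stayed at or under 0.762 cpm and was not called.

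The IFITM proteins sit in membranes and block the fusion of viruses with the cell. Their transcription starts lie within 25820 bases on chromosome 11 and are near-identical copies, so how reads were split among them is uncertain. IFITM3 (chr11:319676-329475, minus strand, GRCh37) was at 158, 122 and 142 cpm in D1, 109.8, 104 and 114 in D1+ TGF-β, 211, 241 and 238 in D20 and 117, 123 and 91.6 in D20+ TGF-β. The 3 D20 flasks stood above all others, which lay between 91.6 and 158 cpm. TGF-β gave −0.37 ± 0.11, adjusted p = 0.0301 at D1 and −1.06 ± 0.11, adjusted p = 8.02e-06 at D20, and time 0.71 ± 0.11, adjusted p = 0.000143 without and 0.02 ± 0.11, adjusted p = 0.910 with TGF-β. IFITM2 was at 37.5, 32.0 and 35.2 cpm in D1, 22.3, 23.5 and 20.6 in D1+ TGF-β, 46.4, 50.6 and 50.6 in D20 and 20.3, 21.9 and 20.6 in D20+ TGF-β. It fell with TGF-β at both days (−0.65 ± 0.085, adjusted p = 0.000123 at D1 and −1.24 ± 0.084, adjusted p = 1.54e-07 at D20) and rose over time without TGF-β (0.50 ± 0.081, adjusted p = 0.000189). IFITM1, under the filter, was at 5.15, 8.49 and 4.93 cpm in D1, 3.60, 3.29 and 2.33 in D1+ TGF-β, 17.6, 22.1 and 22.1 in D20 and 7.81, 10.5 and 6.11 in D20+ TGF-β, lower with TGF-β at D20 (−1.34 ± 0.20, adjusted p = 0.000140). BST2, the tetherin that holds budding viruses, had 36 counts in all 12 libraries together, 25 of them at D20.

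SAMD9L, a cytosolic protein that restricts poxviruses, was at 30.1, 35.05 and 32.7 cpm in D1, 30.6, 26.7 and 28.4 in D1+ TGF-β, 70.4, 66.0 and 70.1 in D20 and 26.9, 31.6 and 30.9 in D20+ TGF-β. The D20 flasks were at about 2 times the level of the others, which overlapped. It fell with TGF-β at D20 (−1.21 ± 0.086, adjusted p = 2.20e-07) with −0.20 ± 0.089, adjusted p = 0.122 at D1, and rose over time without TGF-β (1.08 ± 0.085, adjusted p = 4.64e-07) with 0.06 ± 0.090, adjusted p = 0.592 under it. SAMD9, its paralog, whose start is 30362 bases away on chromosome 7, was at 17.6, 23.4 and 18.7 cpm in D1, 28.7, 22.6 and 19.4 in D1+ TGF-β, 25.3, 18.1 and 20.7 in D20 and 24.3, 27.9 and 27.5 in D20+ TGF-β. Flasks of SAMD9 overlapped in each of the 4 comparisons of conditions, and none was called.

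Among the double-stranded RNA enzymes, EIF2AK2 (PKR), the kinase that halts translation, was not called in any comparison. It was at 44.1, 54.1 and 49.7 cpm in D1, 46.6, 49.8 and 49.4 in D1+ TGF-β, 50.2, 43.0 and 48.5 in D20 and 47.8, 52.8 and 50.2 in D20+ TGF-β. All conditions overlapped, and the 95% interval of its log2 fold change with TGF-β was −0.21 to 0.17 at D1 and −0.10 to 0.27 at D20. ADAR, which edits adenosine to inosine in such RNA, stood between 238 and 332 cpm. Its fall with TGF-β at D20 (−0.27 ± 0.072, adjusted p = 0.00801) was lost without any 1 of the D1+ TGF-β flasks, any 1 of the D20 flasks or any 1 of the D20+ TGF-β flasks (adjusted p = 0.0123 to 0.0440), and its rise over time (0.28 ± 0.072, adjusted p = 0.00571) was lost without replicate 3 of D1, replicate 1 of D1+ TGF-β, any 1 of the D20 flasks or replicate 1 of D20+ TGF-β (adjusted p = 0.0106 to 0.0226). ISG20, an exonuclease, was at 0.572, 0.522 and 0.301 cpm in D20 and 2.36, 1.82 and 1.13 in D20+ TGF-β, higher with TGF-β (2.02 ± 0.40, adjusted p = 0.00129), though the call was lost without replicate 3 of D20 or replicate 1 of D20+ TGF-β (adjusted p = 0.0127 to 0.0129).

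Of the nuclear proteins, TRIM22, a ubiquitin ligase, was at 61.9, 45.9 and 62.5 cpm in D1, 50.2, 54.8 and 47.97 in D1+ TGF-β, 126, 137 and 142 in D20 and 83.0, 78.2 and 72.2 in D20+ TGF-β. Both D20 conditions were above both D1 conditions, with 1.26 ± 0.11, adjusted p = 7.98e-07 over time without and 0.61 ± 0.11, adjusted p = 0.000508 with TGF-β, and it fell with TGF-β at D20 (−0.80 ± 0.11, adjusted p = 5.63e-05) with −0.15 ± 0.11, adjusted p = 0.359 at D1. SP110, another nuclear body protein, fell with TGF-β at D20 (−0.53 ± 0.083, adjusted p = 0.000226). PML, the organizer of nuclear bodies, rose over time (0.60 ± 0.086, adjusted p = 6.85e-05 without and 0.32 ± 0.088, adjusted p = 0.00818 with TGF-β, the latter lost without replicate 1 or 2 of D1+ TGF-β, any 1 of the D20 flasks or any 1 of the D20+ TGF-β flasks (adjusted p = 0.01002 to 0.0522)). SP100, of the same bodies, and TRIM21, a cytosolic antibody receptor, were not called in any comparison, although the treated flasks of TRIM21 lay below the untreated ones at both days (−0.41 ± 0.12, adjusted p = 0.0240 at D1 and −0.31 ± 0.11, adjusted p = 0.0433 at D20).

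The oligoadenylate synthetases, which switch on RNase L, were scarce. OAS1, OAS2 and OASL had 21, 43 and 23 counts in the 12 libraries together, and most of those of OAS2 (30) and OASL (16) were at D20. OAS3 was at 8.11, 7.25 and 6.86 cpm in D1, 4.07, 4.12 and 5.12 in D1+ TGF-β, 1.91, 4.25 and 3.67 in D20 and 3.03, 5.65 and 4.51 in D20+ TGF-β, and was the only member called lower at D20 than at D1 in untreated cells (−1.18 ± 0.24, adjusted p = 0.00128, wider fit). RSAD2 (viperin) and CMPK2, the kinase beside it, had 11 and 29 counts. Of the other members, LGALS3BP, a secreted glycoprotein, was at 212, 157 and 161 cpm in D1, 133, 141 and 142 in D1+ TGF-β, 205, 239 and 235 in D20 and 118, 124 and 114 in D20+ TGF-β, and fell with TGF-β at D20 (−0.93 ± 0.11, adjusted p = 1.44e-05).

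IFI6, a small membrane protein, rose over time from 12.3, 10.9 and 11.9 cpm in D1 to 16.8, 18.3 and 20.5 in D20 (0.67 ± 0.11, adjusted p = 0.000250). IFI35 was at 8.70, 7.90 and 7.53 cpm in D1, 3.60, 4.12 and 3.73 in D1+ TGF-β, 11.6, 11.7 and 12.1 in D20 and 10.1, 9.59 and 10.1 in D20+ TGF-β, lower with TGF-β at D1 (−1.05 ± 0.13, adjusted p = 4.21e-05, wider fit) and −0.24 ± 0.11, adjusted p = 0.102 at D20. It rose over time without TGF-β (0.52 ± 0.11, adjusted p = 0.00141), a call lost without replicate 3 of D20 (adjusted p = 0.0106). IFI27, EPSTI1 and IFI44L, all at or under 3.49 cpm, were higher at D20 than at D1 (2.04 ± 0.36, adjusted p = 0.000388; 1.87 ± 0.33, adjusted p = 0.000398; and 1.75 ± 0.41, adjusted p = 0.00330), and for IFI44L the call was lost without replicate 1 or 2 of D1 or replicate 1 or 3 of D20 (adjusted p = 0.0117 to 0.0169). Under TGF-β, EPSTI1 rose by 2.02 ± 0.43, adjusted p = 0.00161, lost without replicate 2 of D1+ TGF-β (adjusted p = 0.0225). IFI27 was lower with TGF-β at D20 (−1.92 ± 0.36, adjusted p = 0.000734). IFI44 and XAF1 were not called.

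Of the 18 members under the 10 cpm filter, the wider fit called 0 higher and 2 lower with TGF-β at D1 (HERC6 and IFI35), where 5.33% and 4.76% of the 14689 genes were called (10.1% either way), and 1 higher and 2 lower at D20 (11.2% and 11.7% of all, 22.9% either way). Over time it called 10 higher and 1 lower without TGF-β (15.1% and 14.5%, or 29.6% either way), and 10 higher and 0 lower with it (14.3% and 14.2%, or 28.5% either way). The counts behind these values are small, and 3 counts, taken as the floor, equal 0.164 to 0.346 cpm in the libraries.

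**Figure D3:**
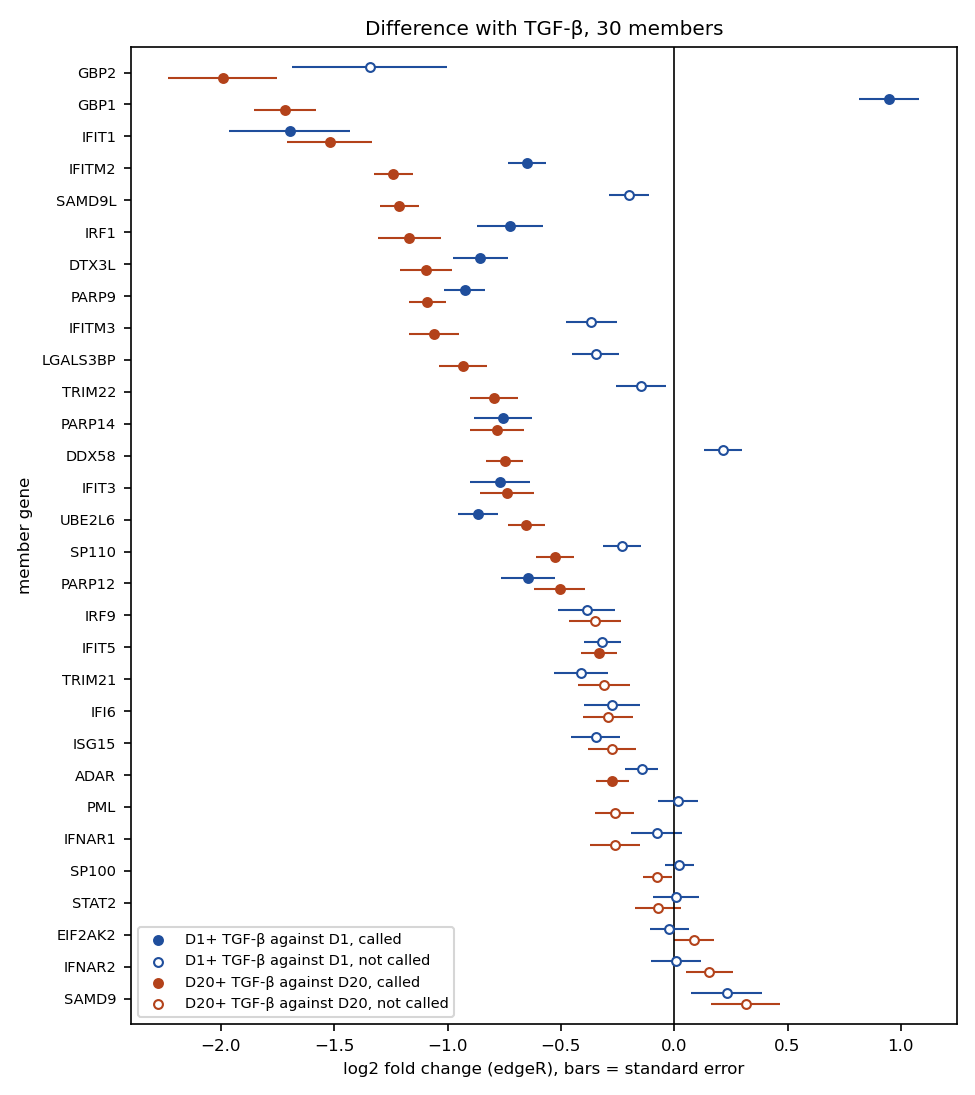
Log2 fold change with TGF-β (x axis) of the 30 members past the 10 cpm filter (rows, ordered by the value at D20), at D1 (blue) and D20 (rust). Bars are standard errors, and filled points were called at an adjusted p under 0.01. Most points lie left of 0, and GBP1 at D1 lies on the right at 0.95.

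The TGF-β responses at the 2 days were compared directly, as the response at D20 minus that at D1. Of the 30 members, 6 were called, all more negative at D20, against 5.87% of all tested genes called in that direction, 4.51% in the other and 10.4% either way. They were GBP1 (−2.67 ± 0.19, adjusted p = 2.43e-06), SAMD9L (−1.01 ± 0.12, adjusted p = 0.000124), DDX58 (−0.96 ± 0.12, adjusted p = 0.000126), IFITM3 (−0.69 ± 0.16, adjusted p = 0.00740), TRIM22 (−0.65 ± 0.15, adjusted p = 0.00861) and IFITM2 (−0.59 ± 0.12, adjusted p = 0.00371). The calls of GBP1, SAMD9L and DDX58 held in all alternatives. That of IFITM3 was lost without replicate 3 of D1, any 1 of the D1+ TGF-β flasks, replicate 2 or 3 of D20 or replicate 1 of D20+ TGF-β (adjusted p = 0.0120 to 0.0229). TRIM22 was lost without any 1 of the D1+ TGF-β flasks, any 1 of the D20 flasks or any 1 of the D20+ TGF-β flasks (adjusted p = 0.0122 to 0.0321). For IFITM2 the call was lost without replicate 1 or 2 of D1+ TGF-β, replicate 2 or 3 of D20 or replicate 1 of D20+ TGF-β (adjusted p = 0.0120 to 0.0170). In contrast, for the 8 members lower at both days other than IFITM2, the difference did not pass the test, with adjusted p between 0.134 for IRF1 and 0.940 for PARP14.

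**Figure D4:**
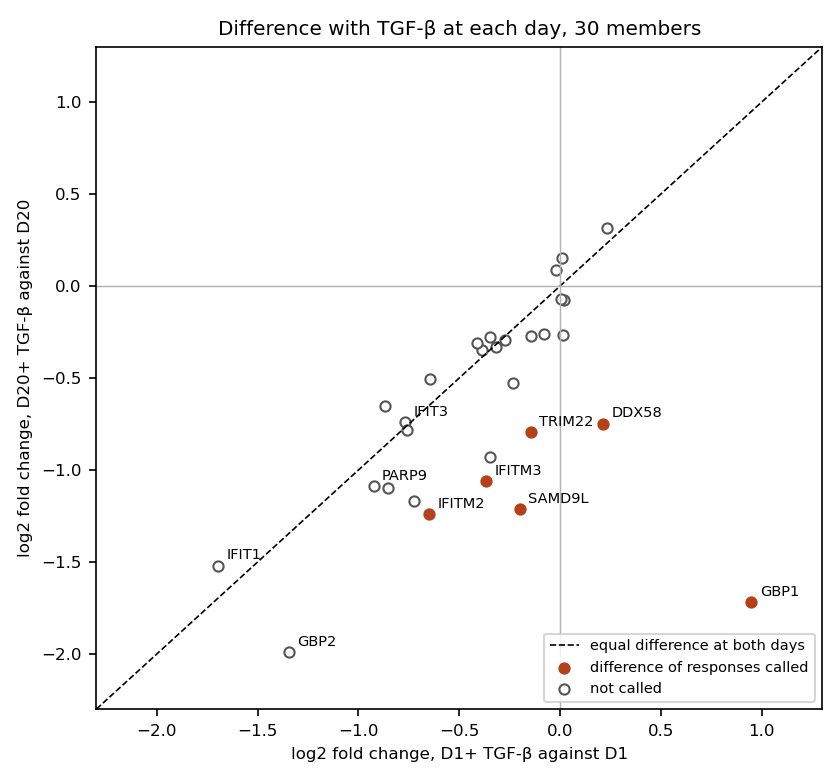
Log2 fold change with TGF-β at D20 (y axis) against that at D1 (x axis) for the 30 members. The dashed line marks equal values, filled points are the 6 members whose responses were called different. These lie below the line, and GBP1 is farthest from it, with a difference of −2.67.

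Among the 18 low members the wider fit called 2 differences, both more positive at D20 (3.41% of all genes in that direction, 4.04% in the other and 7.45% either way). They were ISG20 (2.86 ± 0.64, adjusted p = 0.00696) and IFI35 (0.81 ± 0.17, adjusted p = 0.00422). For ISG20 the call was lost without replicate 2 or 3 of D1, any 1 of the D1+ TGF-β flasks, any 1 of the D20 flasks or replicate 1 or 2 of D20+ TGF-β (adjusted p = 0.0117 to 0.0289), and for IFI35 without any 1 of the D1+ TGF-β flasks, any 1 of the D20 flasks or replicate 1 of D20+ TGF-β (adjusted p = 0.0103 to 0.0147).

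**Figure D5:**
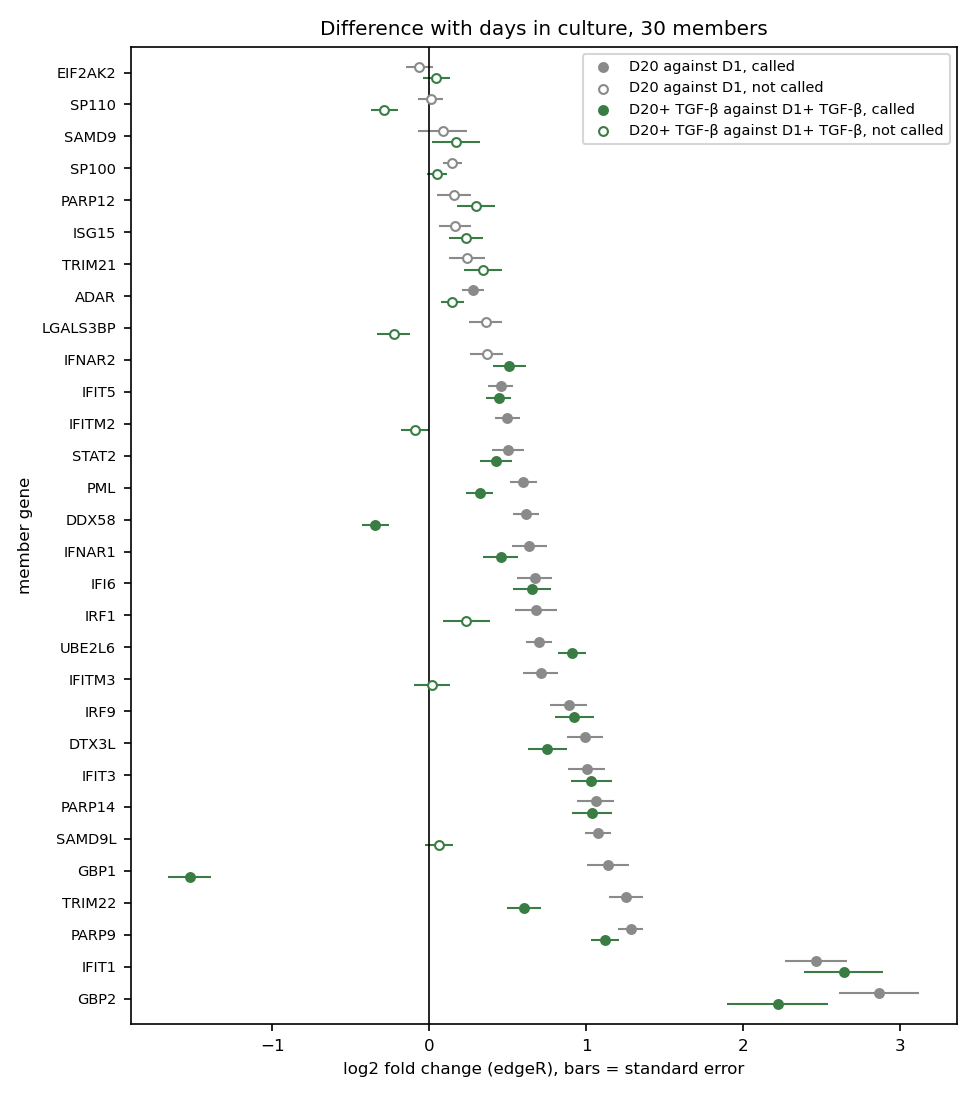
Log2 fold change from D1 to D20 (x axis) of the 30 members (rows, ordered by the value without TGF-β), without (grey) and with TGF-β (green). Bars are standard errors and filled points were called. Points lie mostly right of 0, and the called points on the left are GBP1 and DDX58 under TGF-β.

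Per kilobase of the canonical transcript, so that genes can be compared, IFITM3 had the highest level at D20, 376.8 ± 27.0 cpm per kb (SD, n = 3), followed by LGALS3BP at 102.8 ± 8.58, UBE2L6 at 53.1 ± 3.67, STAT2 at 51.4 ± 2.98, ADAR at 49.9 ± 0.256 and IFITM2 at 48.9 ± 2.42. From UBE2L6 to IFITM2 these neighbours did not differ beyond their spread. IFIT1, GBP2 and PARP9 stood at 13.4 ± 1.03, 15.3 ± 1.90 and 15.7 ± 0.4003, and RSAD2 was lowest at 0.0483 ± 0.0559.

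Of 36 other genes of the pathway, 23 passed the 10 cpm filter. With TGF-β 5 of the 23 were lower and 0 higher at D1, where 6.5% of all tested genes were lower (13.4% either way), and likewise at D20, where 14.7% were (27.5% either way). Over time 5 were higher without TGF-β, against 18.9% of all tested genes (36.4% either way), and 7 with it, against 17.2% (34.8% either way), with 0 lower. The called genes made up 21.7% of the 23 at D1, at D20 and over time without TGF-β, and 30.4% over time with it. Except at D1, these lie under the share of all genes called either way. They lie above the share called in the same direction in each comparison, which was not tested. The 5 of 23 over time lies near the share of all genes called higher. The wider fit took in 5 more, with 1 higher and 1 lower for TGF-β at each day (5.33% and 4.76% of the 14689 genes at D1, 11.2% and 11.7% at D20) and 2 higher and 1 lower over each course (15.1% and 14.5% without TGF-β, 14.3% and 14.2% with it), and 8 passed neither filter. The receptor kinases JAK1 and TYK2 were not called in any comparison, with adjusted p from 0.0244 to 0.562 and from 0.0963 to 0.827. SOCS3, a feedback inhibitor of cytokine receptors, fell with TGF-β at D1 (−1.12 ± 0.22, adjusted p = 0.00227) and D20 (−1.27 ± 0.19, adjusted p = 0.000160), and rose over time without (1.24 ± 0.19, adjusted p = 0.000126) and with TGF-β (1.08 ± 0.22, adjusted p = 0.00120). SOCS1 fell with TGF-β at D1 (−1.47 ± 0.24, adjusted p = 0.000573, wider fit) and rose over time without (0.77 ± 0.19, adjusted p = 0.00504) and with TGF-β (1.85 ± 0.23, adjusted p = 2.80e-05), and TGF-β at D20 gave −0.39 ± 0.19, adjusted p = 0.126, not called. TLR3, an endosomal sensor of double-stranded RNA, was at 5.81, 6.93 and 8.36 cpm in D20 and 0.955, 1.21 and 1.41 in D20+ TGF-β (−2.59 ± 0.28, adjusted p = 6.12e-06, wider fit) and at most 1.70 at D1 and D1+ TGF-β, with 2.41 ± 0.27, adjusted p = 6.62e-06 for D20 over D1. The chemokine CXCL10 was at 11.5, 4.75 and 0.939 cpm in D20+ TGF-β against 2.38, 2.91 and 2.95 in D20 and at most 0.914 in the D1 conditions (adjusted p = 0.000520 over time under TGF-β, wider fit), with replicate 1 far above the others. No fold is given, since D1+ TGF-β replicate 2 had 0 counts and the other D1+ TGF-β flasks 3 each.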

How the data were processed

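RNA of 12 WI-38 flasks was sequenced, 3 in each of 4 conditions. Per the methods and labels, the authors used a directional library kit, trimmed reads with Trimmomatic and aligned them to hg19 with Rsubread. The counting program, annotation and strand setting were not given in the sources used here. The deposited tables held raw counts per gene for 4 lanes of each library, and voom log2 values of the authors for 9412 genes. Lanes were summed here. Library totals of 8674488 to 18286197 limit the precision for low genes. The floor of 3 counts covers counting error only, and the 95% intervals of log2 fold changes come from the fit.

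The filter of the methods was applied to libraries, as 10 cpm in 6 or more, and the genes kept were fitted with edgeR 4.0.16 (quasi-likelihood, TMM, all 12 libraries, R 4.3.3), and members below that in a fit of genes with at least 50 counts in all. P-values were adjusted over all genes fitted (Benjamini-Hochberg) and are two-sided. Errors of log2 fold changes are standard errors and those of levels SD (n = 3). Symbols came from the deposited table for 28 members and from RefSeq by gene ID for 26. Alternatives were other normalizations and filters, DESeq2 1.42.0, limma 3.58.1, a replicate block, and leaving out each library. Members and lists were chosen with earlier results of these data known. Values are given in full for up to 6 called members with the largest change in each comparison, and for IFNAR1, IFNAR2, STAT2, IRF9, IRF1, IRF7, ISG15, USP18, MX1 and EIF2AK2. The rest were chosen for their roles after their values were seen. Gene positions are GENCODE lifted to GRCh37. A gene of the pathway list is not reported here by name.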

Additional observations from a re-analysis of the deposited data

Results flagged for a closer look

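These results had a called difference between the TGF-β response at D20 and that at D1 (log2 fold change at D20 minus that at D1, edgeR's quasi-likelihood test). The value was −2.67 for GBP1, −1.01 for SAMD9L, −0.962 for DDX58, −0.694 for IFITM3, −0.65 for TRIM22 and −0.589 for IFITM2. In the fit of the wider filter it was 2.86 for ISG20 and 0.81 for IFI35. For GBP1 every treated flask lay above every untreated flask at D1 and below every one at D20. For the other 5 members of the first group the fall at D20 was called, while at D1 that of IFITM2 alone was. The calls of IFITM3, TRIM22, IFITM2, ISG20 and IFI35 were lost when single libraries were left out, as given with their values in the results.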

How the results depend on the processing

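Calls at an adjusted p under 0.01 held in every alternative for 8 of 10 members with TGF-β at D1, 16 of 19 at D20, 20 of 21 over time without TGF-β, 13 of 17 with it, and 3 of 6 for the difference of responses, and no called member changed sign. The number of called members was 19 at D1 and 10 for the difference when limma-voom treated the lanes as samples, which counts the 4 lanes of a library as replicates. In that setting 41.4% and 39.3% of all tested genes were called either way. Over the libraries left out, the number of called members ranged from 3 to 7 for the difference, with 3 called without D1+ TGF-β replicate 1 or 2, D20 replicate 2 or 3, or D20+ TGF-β replicate 1. The share of all tested genes called for the difference ranged from 5.79% (without D1+ TGF-β replicate 2) to 18.1% (without D1 replicate 2). Among low members the number called ranged from 2 to 4 at D1 (4 without D1 replicate 2), 2 to 6 at D20 (5 and 6 without D1 replicate 1 and 2), 7 to 11 over time without TGF-β (7 without D20 replicate 3), 6 to 10 with it (6 without D1+ TGF-β replicate 2) and 0 to 2 for the difference, for which DESeq2 called 1. For the low members the shares over all genes were not counted in these settings. The cause was not tested.

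Same-numbered flasks did not deviate together (r from −0.223 to 0.0258), so the numbers do not pair them. With the replicate block, 10, 18, 21, 16 and 4 members were called in the comparisons as ordered above. Of all tested genes, 11.3%, 25.1%, 34%, 32.5% and 8.76% were then called either way, in the same order. Among the low members 3, 5, 11, 10 and 1 were called, and the share over all genes was not counted there.

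Without the composition factor the difference of responses shifts by 0.11 (log2) for all genes. IFITM3 (adjusted p = 0.0128) and TRIM22 (0.0160) then lost that call, as they did with the block (0.0134 and 0.0153), and TRIM22 also with the 50-count filter (0.0104). IRF1 at D1 lost its call with only the 6 libraries of the comparison (0.0144). ADAR, IFIT5, PML under TGF-β and PARP12 at D20 also lost calls in alternatives other than leaving out a library.

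Of 2298 values of the named genes under alternatives, 44 changed sign, none of them called. IFITM3 over time under TGF-β was −0.0129 with the 50-count filter, −0.0267 with filterByExpr and −0.0263 with no filter. With no composition factor and no filter, IFNAR2 at D1 was −0.0539 and −0.00673, STAT2 at D1 −0.0537 and −0.0104, and the difference for PARP14 0.0823 and 0.0089 (0.0113 on the lanes). MX1 at D20 was 0.0104 with no composition factor and 0.0184 with DESeq2. Over the libraries left out, TGF-β at D1 gave −0.0951 to 0.0614 for EIF2AK2, −0.15 to 0.0512 for IFNAR1, −0.0668 to 0.131 for IFNAR2, −0.282 to 0.0421 for IRF7, −0.0383 to 0.337 for MX1, −0.0976 to 0.0977 for STAT2 and −0.307 to 0.0606 for USP18. At D20 it gave −0.66 to 0.306 for MX1 and −0.122 to 0.00442 for STAT2. The difference was −0.0715 to 0.407 for IFIT1, −0.0631 to 0.148 for IFIT3 and −0.186 to 0.0859 for PARP14, and time gave −0.138 to 0.0145 for EIF2AK2 and, under TGF-β, −0.0625 to 0.134 for IFITM3.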
